A study of Xenopus laevis with 42 samples.

Results

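The genes described here are transcripts that appeared as a pulse at gastrula in descendants of the D1 blastomere of Xenopus laevis, the South African clawed frog. D1 is a dorsal-animal cell of the 8-cell embryo whose descendants contribute to the neural plate. A row of the progeny table was taken when it stood at 20 TPM or more at gastrula and when its gastrula value, with 1 TPM added, was at least 8 times the blastula and the early neurula values treated likewise. TPM is an abundance corrected for transcript length and scaled so that every sample has the same total. Of 44962 rows 45 met this rule. The 4 rows of cer1 and pou5f3.2 were left out by name, which left 41 rows, called pulsed rows below. These progeny values chose the rows, so they are a description and carry no evidence of their own.

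Messenger RNA was sequenced from 2 tissues. In explants, the D1 cell was removed and its descendants developed apart from the embryo. In progeny, D1 was filled with a fluorescent dye in place and its labelled descendants were dissected from the embryo. Each tissue had 3 frogs at each of 7 stages, namely 8-cell (stage 4, 2 hours 15 minutes), 16-cell (stage 5, 2 hours 45 minutes), 32-cell (stage 6, 3 hours), blastula (stage 8, 5 hours), gastrula (stage 11, 11 hours), early neurula (stage 14, 16 hours) and mid neurula (stage 17, 18 hours). The labels do not say whether a frog number means the same animal in both tissues, and they give no strain or culture medium and no treatment beyond injection or explantation. The 3 frogs of a group are combined into 1 deposited value, so no difference below has a replicate check, and none has a p-value. Depth is unknown for every column. A gene is said to have risen or fallen, or to be higher or lower, only past a size of 2-fold in TPM + 1, a log2 difference of 1 or more. Adding 1 TPM understates the change of low values, and log2 values below are on this scale.

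Transcription from the embryo's own genome starts on a large scale at the midblastula transition, after a period in which the egg's stored messages run development. Signals of the nodal and VegT pathways, Wnt signals and BMP signals then switch on transcription factors that assign cells to endoderm, mesoderm and ectoderm. Several of these regulators are known in frog embryos as transient transcripts of the gastrula, while the genes of differentiated tissues follow in the neurula. The 41 rows hold genes with a known place in this scheme and rows of unknown function. There were 22 rows with a symbol, 19 of them with a gene name and 3 with a LOC number, and 19 rows had an identifier only. Rows without a symbol made up 20.8% of all 26351 rows that reached 1 TPM in at least 1 column. This frog carries the genomes of 2 ancestral species, and a final L or S tells from which of them, by longer or shorter chromosomes, a gene copy (homeolog) comes. The labels do not say how reads were divided between similar copies.

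A peak this narrow was uncommon. With the same names left out, 757 progeny rows stood at 20 TPM or more at gastrula and 8-fold over blastula, and 411 of them were under 2-fold apart between gastrula and early neurula. The 41 pulsed rows are those of the 757 that came down 8-fold. The smaller of their 2 folds was the one over early neurula in 39 of 41 rows. Progeny gastrula values of the pulsed rows ran from 20.04 to 6066 TPM with a median of 67.2 TPM, blastula values had a median of 0.108 TPM and early neurula values a median of 3.16 TPM. Just inside the fold threshold was LOC101731538-like.S, at 8.36-fold, and just outside were foxi1.L, an ionocyte regulator, at 7.99-fold, c15orf39.S at 7.86-fold and ventx1.2.S, a ventral homeodomain factor, at 7.68-fold. Just inside the level threshold were 3 rows without a symbol at 20.04, 23.2 and 25.9 TPM, and just outside were mix1.S at 18.97 TPM and sds.L at 18.7 TPM.

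The highest of the 41 rows needs to be set apart before any other result. Xelaev18002122m, which no source used here pairs with a gene name, stood in explants at 168, 4296, 6046 and 7110 TPM from blastula to mid neurula. In progeny the same row was at 79.4 TPM at blastula, 6066 at gastrula and exactly 0 at both neurula stages. It is listed at 0 there, and other highly abundant rows are listed at 0 too, such as eef1a1o.S, a translation elongation factor, at 8784 TPM in gastrula explants and 0 in explants at both neurula stages. Its place among the pulsed rows rests on those zeros. Counts below include this row unless they are said to leave it out.

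The explant table was not used in choosing the rows, and it shows how far the same pulse ran in cells kept apart from the embryo. From blastula to gastrula all 41 rows rose in explants, against 15.9% of all rows kept, with a median log2 rise of 5.17. All 41 passed the filter of 1 TPM in the explant table. Of 716 other rows that were at 20 TPM or more and 8-fold over blastula in progeny gastrulae, 97.9% rose in explants, so the rise is common to rows of this kind. From gastrula to early neurula 36 of 41 pulsed rows fell in explants, with a median log2 change of -3.38. The share that fell was 22.1% over all rows kept and 29.1% over the 716 other rows. Those 716 rows are the ones that had not come down 8-fold in progeny, so part of this contrast follows from how the rows were divided. The whole rule, applied to explant values, was met by 25 of the 41 rows, against 0.279% of all rows kept. Of the 16 that missed it, 8 missed only the 8-fold fall by early neurula, 1 missed only the level of 20 TPM, and 7 missed more than 1 condition.

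**Figure D1:**
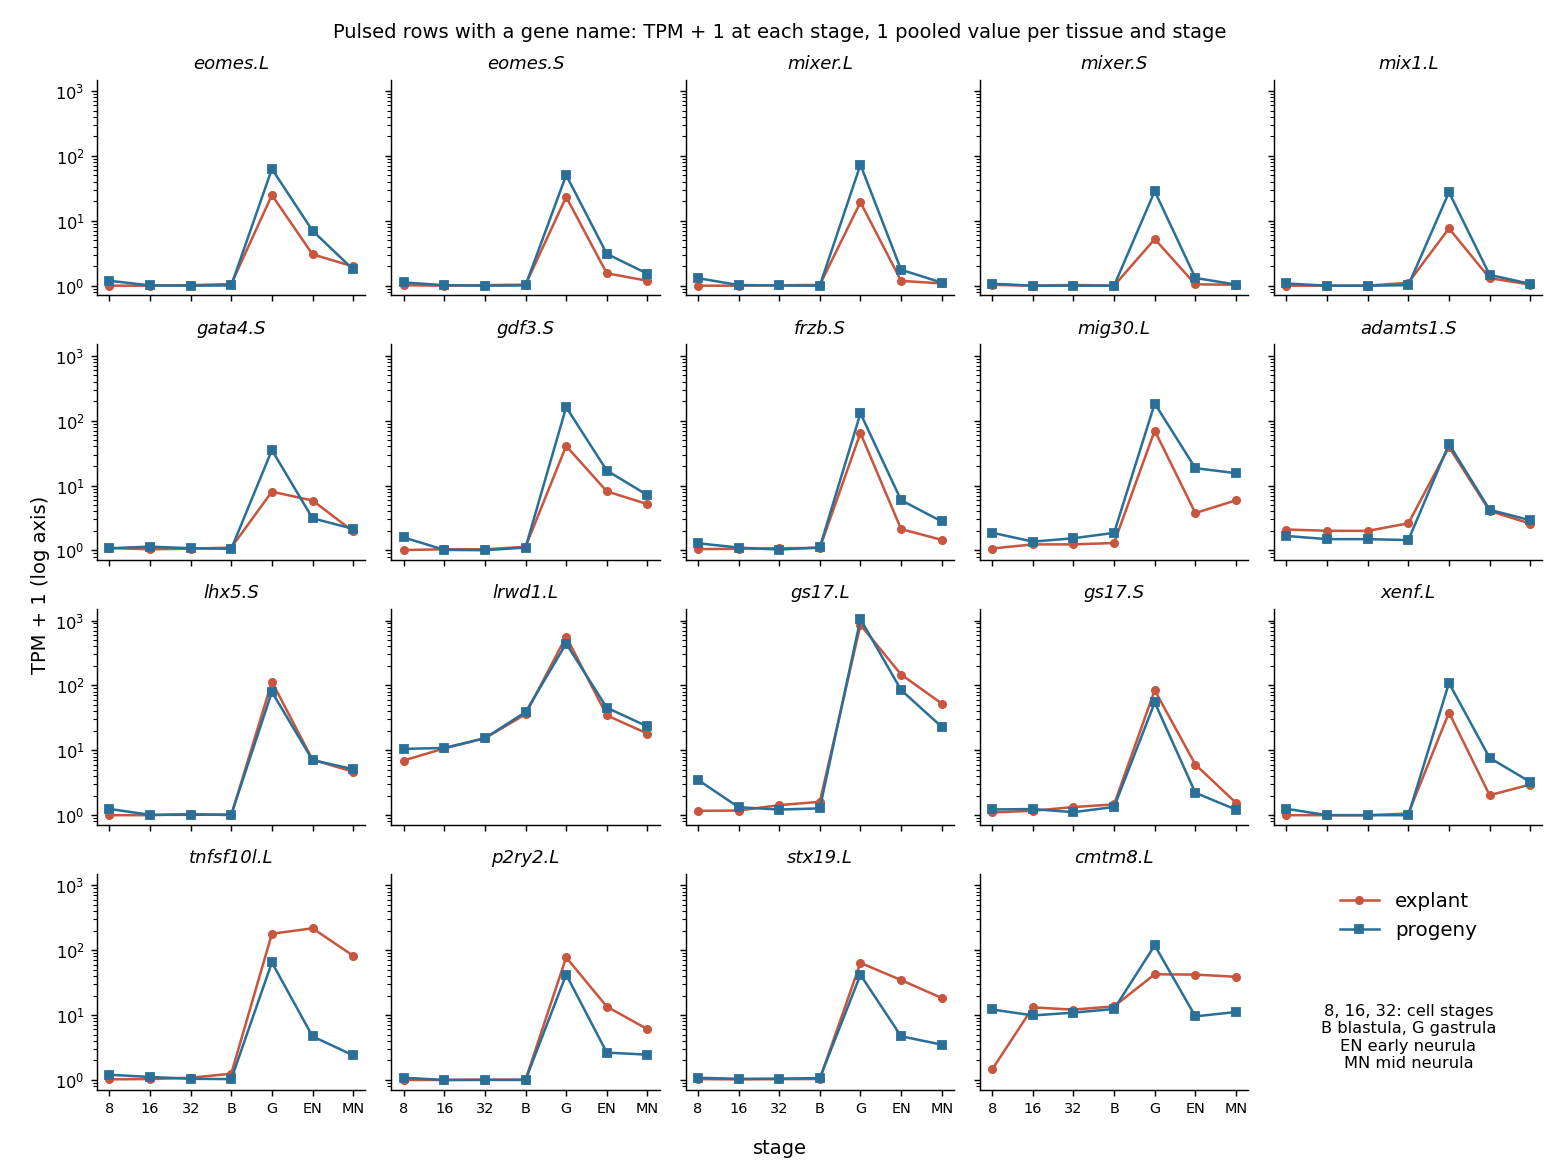
Level of each of the 19 pulsed rows with a gene name at the 7 stages, as TPM + 1 on a log axis, with 1 pooled value per point and no error bars; circles are explants and squares are progeny. All 19 rows have their highest progeny value at gastrula, which the rule set above blastula and early neurula. In explants tnfsf10l.L is at 178 TPM at gastrula and 216 TPM at early neurula, under 2-fold apart, and cmtm8.L stays near 40 TPM from gastrula on.

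Transcription factors of mesoderm and endoderm make up 6 of the rows, and all 6 were lower in explants at gastrula. The share lower was 3.42% over all rows kept and 27.1% over the 716 other rows, which were chosen by the same high progeny gastrula values. Eomes, the T-box factor eomesodermin of the early mesoderm, was pulsed on both copies. In explants eomes.L was at 0.0616, 23.9, 2.04 and 0.979 TPM at blastula, gastrula, early neurula and mid neurula. In progeny it was at 0.00848, 61.9, 6.02 and 0.777 TPM. The other copy, eomes.S, was at 0.0381, 22.3, 0.55 and 0.192 TPM in explants and at 0.00867, 49.6, 2.09 and 0.528 TPM in progeny. Both copies thus peaked at the same stage in both tissues, and the log2 difference at gastrula was -1.34 for eomes.L and -1.12 for eomes.S. With a pseudocount of 5 that of eomes.S was -0.997, just under 2-fold.

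Mixer and Mix1 are paired-type homeodomain proteins that act in frog endoderm formation. At gastrula mixer.L was at 18.3 TPM in explants and 72.1 TPM in progeny, and at early neurula at 0.186 and 0.759 TPM. The short copy, mixer.S, was at 4.22 TPM in gastrula explants and 27.6 TPM in gastrula progeny, a log2 difference of -2.45, the lowest of the 41 rows. Mix1.L was at 6.64 TPM in gastrula explants and 26.5 TPM in gastrula progeny, and at 0.305 and 0.469 TPM at early neurula. These 3 rows were at or below 0.111 TPM at blastula in both tissues and came back to below 1 TPM by early neurula in both. Gastrula was thus their highest sampled stage in both tissues, at different levels. A difference in height and a shift in time between sampled stages cannot be told apart here.

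Gata4, a zinc-finger factor of endoderm and heart, did not fall 2-fold after gastrula in explants on its short copy. Its row gata4.S was at 0.106, 7.04, 4.88 and 0.969 TPM from blastula to mid neurula in explants and at 0.0563, 34.2, 2.13 and 1.15 TPM in progeny. The explant value changed by -0.45 on the log2 scale between gastrula and early neurula, which is under 2-fold. The progeny value fell by 3.49, but the rule required a fall of at least 8-fold there. The difference between the tissues was -2.13 at gastrula and 0.91 at early neurula, the latter under 2-fold. The long copy gata4.L, no pulsed row, did not share this course in explants. From gastrula to early neurula it fell from 4.59 to 1.21 TPM in explants and from 26.9 to 5.06 TPM in progeny.

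A list of 36 symbols for mesoderm and endoderm transcription factors gives these rows their setting. It held 65 rows above the filter, of which 46 were lower in explants at gastrula and 0 higher, with a median log2 difference of -1.81 beside 0.05 over all rows kept. The 6 pulsed rows thus share their direction with most of this list, though they are on it and are counted among the 46. In progeny 62 of the 65 rose from blastula to gastrula, but 30 fell and 13 rose from gastrula to early neurula, and 6 were pulsed rows. Some relatives missed the rule by level or by what was there at blastula. The row bix1.3.L, a Mix-type homeodomain gene, was at 5.15 TPM in gastrula explants and 21.98 TPM in gastrula progeny and at 0.33 and 0.55 TPM at early neurula, after 1.19 and 2.65 TPM at blastula. The row vegt.S, a T-box factor with a maternal transcript, was at 65.3 TPM in gastrula explants and 377 in gastrula progeny, but already at 61.7 and 91.1 TPM at blastula. Others on the list were more lasting: gata6.L was at 6.63 and 7.36 TPM in explants at gastrula and early neurula and at 33.1 and 19.1 TPM in progeny.

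Secreted proteins form a group of 4 rows, of which 3 were lower in explants at gastrula. Over all rows kept 3.42% were lower, and over the 716 other rows, chosen by the same high progeny gastrula values, 27.1%. The row gdf3.S encodes derrière, a TGF-beta ligand that induces mesoderm in frogs, and stood at 0.138, 39.7, 7.13 and 4.17 TPM from blastula to mid neurula in explants. In progeny its values were 0.108, 160, 16.0 and 6.13 TPM. The log2 difference at gastrula was -1.99, and the row kept more of its peak in explants than the rule allows, at 5.01-fold over early neurula. On a list of 29 rows of the nodal and TGF-beta pathway that passed the filter, gdf3.S was the only pulsed row. It was also the only row lower in explants at gastrula, while 2 were higher, smad7.L and smad7.S, whose product dampens TGF-beta and BMP signals. No row named nodal is on that list.

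Frzb, a Wnt-binding antagonist made by the organizer, was pulsed on its short copy. The row frzb.S was at 0.0911, 63.5, 1.13 and 0.455 TPM from blastula to mid neurula in explants, against 0.114, 129, 4.96 and 1.8 TPM in progeny. Its long copy frzb.L was close at gastrula, at 68.0 TPM in explants and 147 TPM in progeny, but stood at 6.04 and 49.4 TPM at early neurula. The log2 difference of frzb.S at gastrula was -1.01, and with a pseudocount of 5 it was -0.96, under 2-fold. The long copy was 2.94-fold over early neurula in progeny, where the short copy was far beyond 8-fold. On a list of organizer secreted proteins frzb.S was the only pulsed row of 25, and 11 of the 25 were lower in explants at gastrula and 0 higher. Lists of early ectoderm transcription factors, ventral and BMP-induced genes, gastrulation movement and adhesion genes, cell cycle genes and maternal messages held no pulsed row. With 41 pulsed rows among 26351 kept, lists of 31 to 73 kept rows would likely hold none, so nothing is read from this. The ectoderm list holds foxi1.L and the ventral list ventx1.2.S, which both missed the fold threshold narrowly.

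Mig30 is a secreted protein related to insulin-like growth factor binding proteins and has been studied in frog gastrulation movements. Its row mig30.L was at 0.301, 69.4, 2.77 and 4.92 TPM from blastula to mid neurula in explants and at 0.867, 183, 17.5 and 14.5 TPM in progeny. It was lower in explants at all 3 stages from gastrula on, with log2 differences of -1.38, -2.30 and -1.39, the last of which was -0.97 with a pseudocount of 5. A row without a symbol, Xelaev18003702m, ran beside it at a nearly fixed ratio of 1.24 to 1.32 over the 6 columns in which both reached 1 TPM, which was the closest match among the pulsed rows. Whether these rows share reads was not tested. Adamts1, a secreted metalloprotease that cleaves matrix proteoglycans, differed little between the tissues on its short copy. The row adamts1.S was at 38.2 TPM in gastrula explants and 42.6 TPM in gastrula progeny, and at 3.06 and 3.24 TPM at early neurula. Its long copy adamts1.L was at 43.3 and 51.0 TPM at gastrula, but at 2.27 TPM in early neurula explants and 10.1 TPM in early neurula progeny.

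Lhx5, a LIM-homeodomain factor known from the early ectoderm and forebrain, was at 0, 113, 6.17 and 3.67 TPM from blastula to mid neurula in explants on its short copy and at 0.0248, 78.5, 6.06 and 4.12 TPM in progeny. Lrwd1, which associates with the origin recognition complex in human cells, was among the few pulsed rows with a symbol that had a transcript before gastrula, and had the highest blastula level of them. The row lrwd1.L was at 5.96, 9.71, 14.3, 34.9, 565, 33.5 and 17.1 TPM over the 7 stages in explants and at 9.51, 9.87, 14.4, 37.8, 441, 44.3 and 22.3 TPM in progeny. It already rose between 8-cell and blastula in both tissues, and its 2 courses stayed within 2-fold of each other at every stage.

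Gs17, a transcript known from frog gastrulae whose product has no role given here, was pulsed on both copies at very different levels. The row gs17.L was at 856 TPM in gastrula explants and 1052 TPM in gastrula progeny, and gs17.S at 83.1 and 53.6 TPM. At early neurula gs17.L was at 146 and 83.9 TPM and gs17.S at 5.03 and 1.22 TPM, and at mid neurula gs17.L was at 51.5 and 22.0 TPM. Both copies therefore stood under 2-fold apart between the tissues at gastrula, gs17.S was higher in explants at early neurula and gs17.L at mid neurula. With a pseudocount of 5 the early neurula log2 difference of gs17.S was 0.69, under 2-fold. The row xenf.L, whose function is not described here, was at 37.2 TPM in gastrula explants and 108 TPM in gastrula progeny, and at 1.03 and 6.65 TPM at early neurula.

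Membrane and signalling proteins, a group of 4 rows, were all higher in explants at early neurula, against 10.9% of all rows kept. The rule chose rows with low progeny values at that stage, which favours this call. Tnfsf10l, a relative of the death ligand TRAIL, was at 0.248, 178, 216 and 81.1 TPM from blastula to mid neurula in explants on its long copy, against 0.0304, 63.6, 3.69 and 1.4 TPM in progeny. The log2 difference was 1.47 at gastrula and 5.53 at early neurula. The peak was thus spread over both stages in explants, while the rule asked for 1 limited to gastrula in progeny. Stx19, a syntaxin of membrane fusion, was at 0.0349, 62.7, 33.6 and 17.3 TPM in explants and at 0.0706, 40.7, 3.71 and 2.5 TPM in progeny (stx19.L). P2ry2, a receptor for extracellular nucleotides, was at 76.4, 12.5 and 5.06 TPM from gastrula on in explants and at 41.1, 1.64 and 1.46 TPM in progeny (p2ry2.L). These 3 rows were under 0.3 TPM at blastula in both tissues, and each was higher in explants at both neurula stages, although p2ry2.L at mid neurula differed by 0.64 on the log2 scale with a pseudocount of 5. The short copy p2ry2.S, no pulsed row, did not share this course. From gastrula to early neurula it went from 10.9 to 1.296 TPM in explants and from 3.71 to 3.62 TPM in progeny. The short copy stx19.S, no pulsed row either, was at 18.1 TPM in early neurula explants and 5.63 TPM in early neurula progeny.

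Cmtm8, a transmembrane protein of the MARVEL family, made a step in explants. Its pulse in progeny was required by the rule. The row cmtm8.L was at 12.6, 41.5, 41.0 and 37.9 TPM from blastula to mid neurula in explants, and at 11.4, 118, 8.55 and 10.1 TPM in progeny. Its log2 difference was -1.48 at gastrula and 2.14 at early neurula, so the order of the tissues turned. The rule asked for a high progeny value at gastrula and a low one at early neurula, which favours such a turn. The 5 rows that did not fall in explants from gastrula to early neurula were cmtm8.L, tnfsf10l.L, stx19.L, gata4.S and Xelaev18002122m, and without the last 36 of 40 fell.

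**Figure D2:**
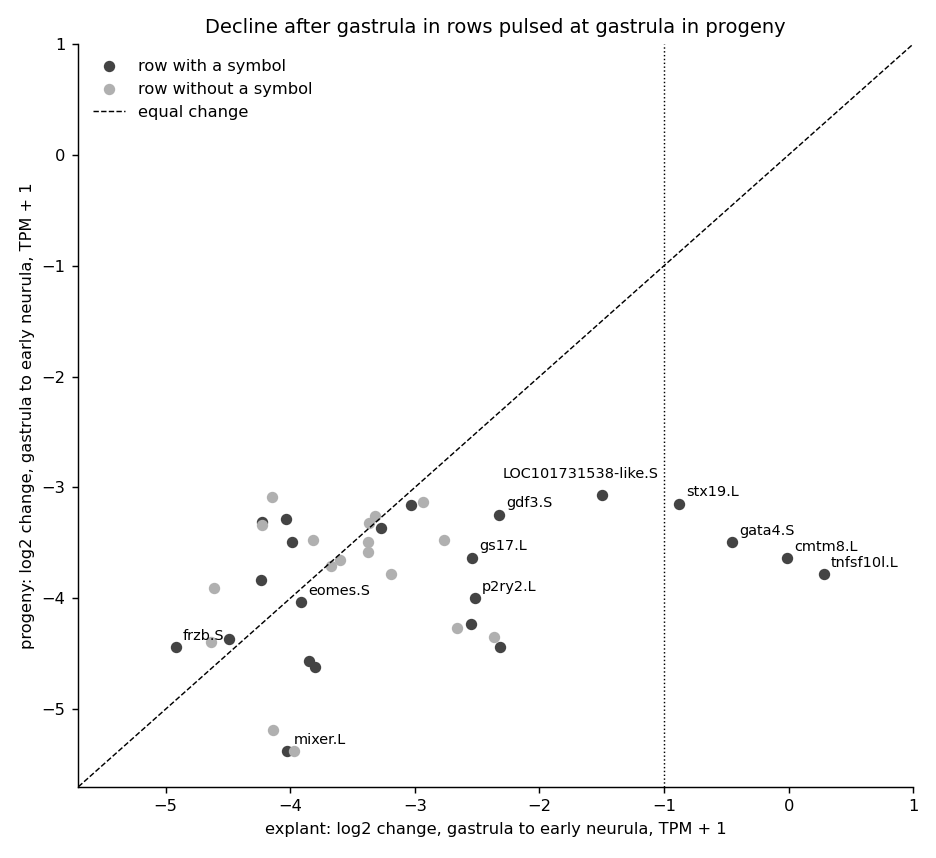
Log2 change of TPM + 1 from gastrula to early neurula in explants (x axis) and progeny (y axis), 1 point per row, for the 40 rows other than Xelaev18002122m. All progeny values lie below -3 because the rule chose them so; the 4 rows right of the dotted line at -1, stx19.L, gata4.S, cmtm8.L and tnfsf10l.L, did not fall 2-fold in explants.

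Over the whole set the explants were lower at gastrula in 14 of 41 rows, against 3.42% of all rows kept, and higher in 7, against 2.2%. Progeny gastrula values chose the rows, which favours rows that happen to be high in that column, and the share lower among the 716 other rows, chosen by the same column, was 27.1%. The share of those 716 rows higher in explants was 3.91%. The median log2 difference of the 41 rows was -0.15, beside 0.05 over all rows kept. The 22 rows with a symbol had a median of -1.06 and the 19 rows without one a median of -0.03. Besides the genes already named, LOC101731538-like.S was lower, at 37.9 TPM in explants and 197 TPM in progeny, LOC101732555.L was higher, at 109 and 36.9 TPM, and LOC101731737.1.S was at 65.8 and 67.2 TPM. Of the 19 rows without a symbol 5 were higher in explants at gastrula and 2 lower. In explants their log2 rise from blastula to gastrula ran from 2.73 to 8.23, and their log2 change from gastrula to early neurula from -4.63 to 0.49. The value of 0.49 is that of Xelaev18002122m, and the next highest was -2.36, in Xelaev18010420m. The extremes among rows without a symbol, picked after their values were seen, were Xelaev18002554m at 554 TPM in gastrula explants and 118 TPM in gastrula progeny, and Xelaev18010420m at 5.62 and 30.2 TPM.

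**Figure D3:**
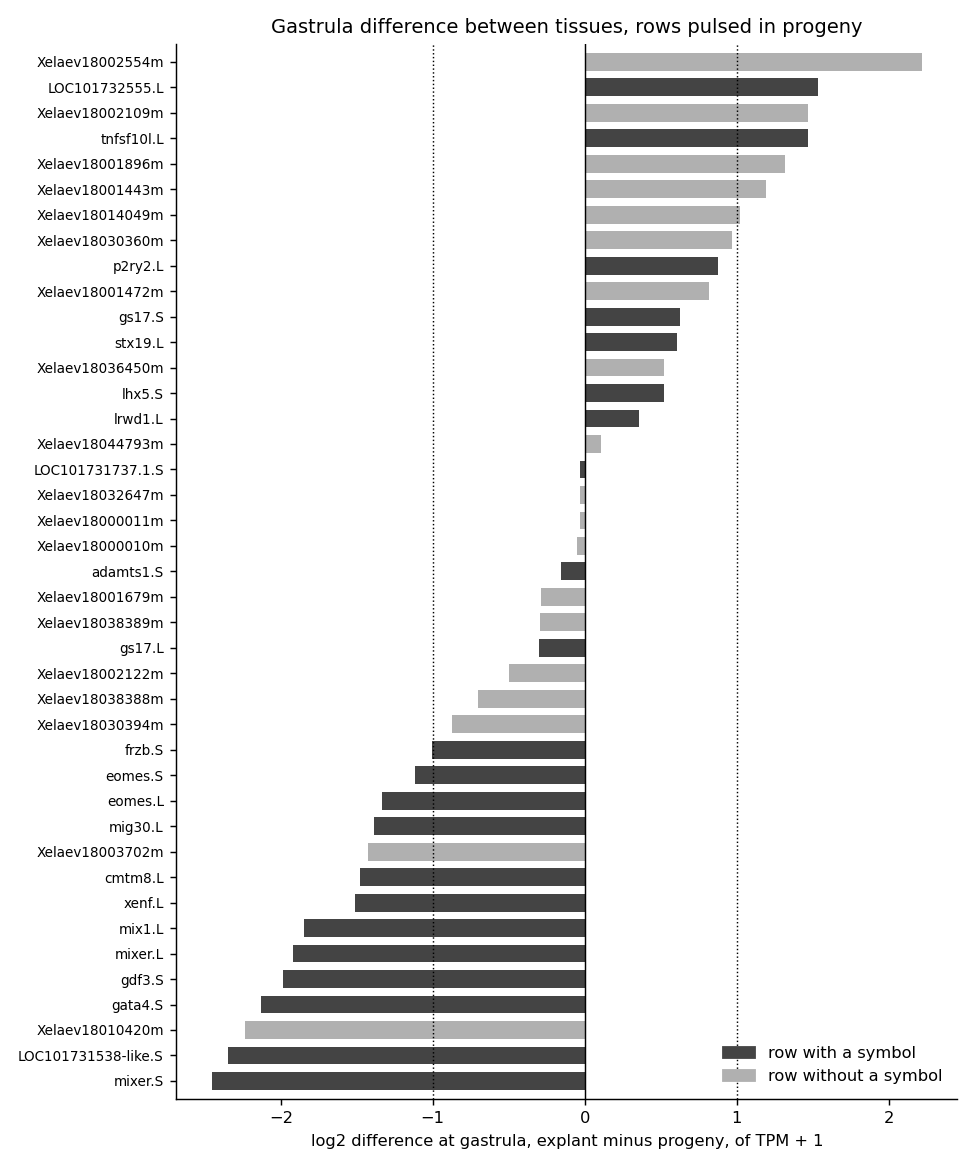
Difference between explants and progeny at gastrula for each of the 41 pulsed rows, as log2 of TPM + 1, explant minus progeny; dotted lines mark 2-fold. The 14 rows beyond -1 include all 6 mesoderm and endoderm transcription factors, and 5 of the 7 rows beyond 1 have no symbol.

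Markers of other tissues differed between the same gastrula columns. In bulk samples such as these, fewer cells of a type and less RNA per cell cannot be told apart. Of 18 rows of paraxial mesoderm markers 15 were lower in explants, with a summed level of 93.5 TPM in explants and 1407 TPM in progeny and msgn1.S at 0 in explants. Of 16 rows of endoderm markers above the filter all 16 were lower, with sums of 215 and 828 TPM and a2m.L at 0 in explants. That list includes gata4.S, mixer.L and mixer.S, so it is no separate reading for them. Of 18 rows of epidermis markers 8 were higher in explants and 0 lower, with sums of 2693 and 1743 TPM. Of 18 rows of neural plate markers 2 were lower and 0 higher, with sums of 1790 and 2583 TPM and nrp1.L at 0 in explants. Mesoderm and endoderm markers were thus lower and some epidermis markers higher in the explants. The part of these markers in the differences of the pulsed rows was not tested.

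At early neurula 14 of 41 rows were higher in explants, against 10.9% of all rows kept, and 6 were lower, against 12.9%. Progeny early neurula values were low by the choice of rows, and the 716 other rows, of which 15.8% were higher in explants and 36.7% lower, were those that had not come down 8-fold there, so nothing is read from the early neurula counts. The rule did not use mid neurula values. At that stage 11 rows were higher in explants, against 12% of all rows, and 2 were lower, against 13.6%. The pulsed rows, chosen low in early neurula progeny, stayed low in mid neurula progeny, where their lower quartile was under 1 TPM. A row under 1 TPM in progeny cannot be called lower in explants at a size of 2-fold in TPM + 1. The mid neurula counts thus also depend on the choice of rows, and nothing is read from them either. Without Xelaev18002122m the rows higher in explants numbered 13 at early neurula and 10 at mid neurula. Among the 716 other rows risen at gastrula the mid neurula shares were 17.6% higher and 26% lower. The 2 lower rows at mid neurula were mig30.L and Xelaev18003702m. The 11 higher rows included tnfsf10l.L at 81.1 TPM in explants and 1.4 TPM in progeny, cmtm8.L at 37.9 and 10.1 TPM, and gs17.L.

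**Figure D4:**
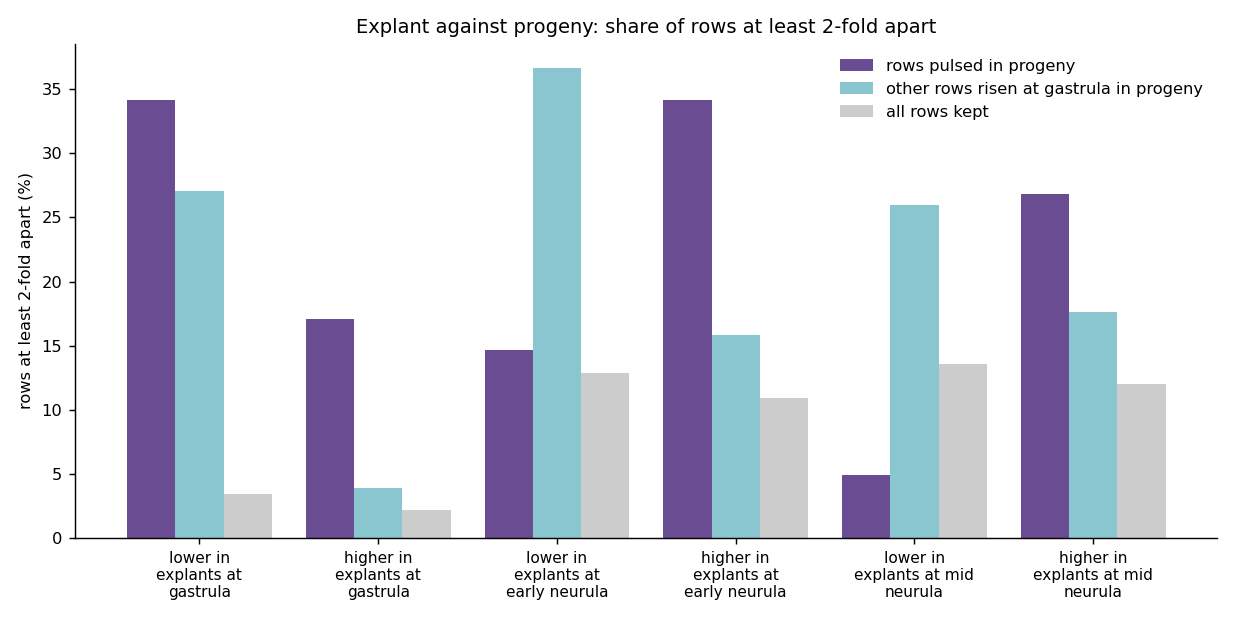
Percent of rows at least 2-fold lower or higher in explants than in progeny at 3 stages from gastrula on, for the 41 pulsed rows, the 716 other rows risen at gastrula in progeny, and all 26351 rows kept. At mid neurula 11 pulsed rows were higher and 2 lower in explants, and of the 716 other rows 17.6% were higher and 26% lower. The gastrula and early neurula bars rest on progeny values that chose the rows. The rule did not use mid neurula values, but the pulsed rows, chosen low in early neurula progeny, stayed low there.

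No pulsed row rose again by mid neurula. From early to mid neurula 15 of 41 pulsed rows fell further in progeny, against 1.56% of all rows kept and 16.9% of the 716 other rows, and 0 rose, against 8.17% and 1.12%. In explants 14 fell, against 1.34% and 9.36%, and 0 rose, against 8.09% and 7.26%. With a pseudocount of 0.1 these falls numbered 28 in progeny and 22 in explants, and with a pseudocount of 5 they numbered 5 and 6. Progeny early neurula values took part in the choice of rows. The largest mid neurula levels of pulsed rows in progeny were 22.3 TPM for lrwd1.L and 22.0 TPM for gs17.L.

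Before blastula most pulsed rows were near 0. The rule asked for a progeny blastula value at least 8-fold below gastrula, so low cleavage values follow in part from the choice of rows. In progeny 14 of 41 reached 1 TPM in at least 1 cleavage column, against 73.8% of all rows kept, and 3 of these 14 had a symbol, lrwd1.L, cmtm8.L and gs17.L. Cmtm8.L, at 8.88 to 11.2 TPM in cleavage progeny, and lrwd1.L thus had a transcript before zygotic transcription, and gs17.L passed 1 TPM in the 8-cell column alone, at 2.51 TPM. Without a symbol, Xelaev18044793m and Xelaev18000011m also passed it in the 8-cell column alone, at 1.80 and 1.52 TPM. In explants 10 of 41 rows had a higher TPM at 8-cell than at 16-cell, against 32.7% of all rows kept, and in progeny 33 of 41, against 44.2%. The progeny share was similar in other rows that were below 0.5 TPM at 16-cell, 32-cell and blastula in both tissues and at 20 TPM or more in gastrula progeny. Of 361 such rows outside the pulsed set 312 were higher at 8-cell in progeny, beside 22 of 25 pulsed rows. The explant shares differed, at 219 of the 361 rows and 6 of the 25 pulsed rows, whose median 8-cell value was 0 TPM. In explants cmtm8.L was at 0.454 TPM at 8-cell and at 11.1 to 12.6 TPM from 16-cell to blastula.

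The other subgenome copy gives a reading of the pulse in rows that the rule passed over. Of the 22 rows with a symbol 16 have a row for the other copy. In 3 genes, eomes, mixer and gs17, both copies were pulsed, and in 10 the other copy missed the rule. Of those 10 other copies 7 were at 10 TPM or more at gastrula and at least 2-fold over both blastula and early neurula in progeny. In all 7 the gastrula difference between the tissues had the sign of the pulsed copy, counted at any size. No share over all homeolog pairs is given beside these counts, so nothing particular to the pulsed rows is read from them. The log2 difference was -1.62 for mix1.S beside -1.85 for mix1.L and -2.32 for gata4.L beside -2.13 for gata4.S. It was -1.24 for mig30.S beside -1.38 for mig30.L and -1.10 for frzb.L beside -1.01 for frzb.S. Under 2-fold were lhx5.L at 0.58 beside 0.52 for lhx5.S, stx19.S at 0.75 beside 0.61 for stx19.L, and adamts1.L at -0.23 beside -0.15 for adamts1.S. Outside these 7, both copies of gs17 were pulsed and had opposite signs, at -0.30 for gs17.L and 0.63 for gs17.S, each under 2-fold. As similar copies may share reads, these are not independent readings. The other 3 copies were low, with p2ry2.S at 3.71 TPM, cmtm8.S at 0.40 TPM and LOC101731538-like.L at 0 in gastrula progeny.

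With the same names left out, 65 explant rows met the rule, and the 25 shared rows are 38.5% of those and 61.0% of the progeny set. Of the 40 rows pulsed only by the explant values, 33 were under 8-fold over early neurula in progeny, 11 were under 20 TPM and 8 were under 8-fold over blastula, with 9 rows missing more than 1 condition. Of the 65 explant rows 4 were listed at 0 in early neurula explants, eef1a1o.S, krt5.7.L, krt5.7.S and Xelaev18027369m. None of these 4 is a pulsed row of progeny, and without them 61 explant rows remain, of which the 25 shared rows are 41.0%. Named here after their values were seen, foxd4l1.1.L, a forkhead factor of the early neural ectoderm, was at 55.4 TPM in gastrula explants and 5.74 TPM in early neurula explants, against 139 and 54.1 TPM in progeny. The organizer gene gsc.L was at 42.5 and 3.55 TPM in explants, against 30.0 and 25.7 TPM in progeny.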

How the data were processed

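The authors deposited 2 tables of TPM values, 1 per tissue, with 7 columns each, 1 per stage, per the file headers. The 3 samples of a group had been combined into 1 value by a step not given in the sources used here, which give no genome build or annotation either. TopHat, Bowtie2, Cufflinks and Cuffdiff are named, without versions, in the submitters' processing notes. Every column was scaled to nearly the same total, and the tables were not scaled to each other beyond this. Depth is unknown.

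The rule, the folds and the counts were computed in Python 3.11.15 with pandas 2.3.3 and checked on simulated data. Rows at 1 TPM or more in at least 1 column of the tables compared were kept. Changes are differences of log2(TPM + 1), and 1 or more counts as changed. The pulsed rows, gene lists and comparisons were chosen with earlier results of these data known. Genes named are the pulsed rows with a symbol (the highest and lowest by level, tissue difference and persistence, and homeolog pairs), list members and rows beside the thresholds. Of 22 symbols 18 were found in RefSeq's gene table for Xenopus_laevis_v10.1. No promoter or protein sequence was used here.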

Additional observations from a re-analysis of the deposited data

Results flagged for a closer look

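For 2 of the 41 pulsed rows the change from gastrula to early neurula differed in sign between the 2 tissues. Neither row changed by 2-fold in explants, so neither is said to have risen there. The rule required a fall of at least 8-fold in progeny, so the sign and least size of the progeny change came from the choice of rows. The differences below were not tested, since each tissue and stage has 1 pooled value. For tnfsf10l.L the log2 change was 0.28 in explants and -3.78 in progeny, a difference of 4.06. For Xelaev18002122m it was 0.49 in explants and -12.57 in progeny, a difference of 13.06, and the progeny value is listed at 0 at early neurula.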

How the results depend on the processing

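No paired analysis was possible because each group is 1 pooled column without replicate numbers, and for the same reason no replicate could be left out. Promoter motifs were not run, as no promoter table was used here. The number of pulsed rows was 41 and became 107 with a least fold of 4, 14 with 16, 24 with a least level of 50 TPM and 17 with a pseudocount of 5. Median-of-ratios scaling, which shifted all rows between the tissues by -0.09 (log2) at gastrula and by 0.14 at either neurula stage, kept every count within 1.5 times of the value reported. The median log2 difference at gastrula was -0.16 and -0.14 with pseudocounts of 0.1 and 5, -0.24 with median-of-ratios scaling, -0.12 with homeologs summed, -0.30 for the 24 rows at 50 TPM, -0.40 for the 14 rows at 16-fold, -0.10 without Xelaev18002122m and -1.06 for the 22 rows with a symbol. The last 2 choices were added after seeing the data.

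With a pseudocount of 5 the rule was met in explants by 16 of the 41 rows, which were still those chosen with 1 TPM added. That setting gave 9 higher and 2 lower at early neurula, 7 higher and 1 lower at mid neurula, and 5 and 6 falls from early to mid neurula in progeny and explants. A pseudocount of 0.1 gave 28 and 22 such falls and 4 rows lower at mid neurula, and summed homeologs also gave 4. A cleavage floor of 2 TPM left 9 rows. Subsets of rows have smaller counts by construction. The 24 rows at 50 TPM held 24 rises and 21 falls in explants around gastrula, 9 lower and 4 higher at gastrula, 8 higher at early neurula and 8 later falls in explants. The 14 rows at 16-fold held 14 rises and 13 falls, 8 met the rule in explants, 6 were lower and 2 higher at gastrula, 1 lower and 5 higher at early neurula, and 0 lower and 2 higher at mid neurula, with 4 later falls in progeny and 5 in explants. The 22 rows with a symbol held 22 rises and 18 falls, 11 met the rule in explants, 2 were higher in gastrula, 6 in early neurula and 5 in mid neurula explants, 1 was lower in the last, and 7 and 6 fell later in progeny and explants. Of single genes, eomes.S and frzb.S came under 2-fold at gastrula with a pseudocount of 5, at -0.997 and -0.96. The other gastrula differences of the 22 rows with a symbol kept their side of 2-fold under both pseudocounts and median-of-ratios scaling, and no gene's called difference changed sign at any of the 3 later stages. At early neurula 6 came under 2-fold with a pseudocount of 5 (eomes.L, frzb.S, gdf3.S, gs17.S, xenf.L and LOC101732555.L), 4 came past it with 0.1, and median-of-ratios scaling moved gdf3.S to -0.95 and gata4.S to 1.05. At mid neurula 2 came under it with 5 and 4 past it with 0.1. The neurula values of single genes were added after seeing the data.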

Other observations

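In the 8-cell progeny column many pulsed rows stood slightly above 0. Among the 25 pulsed rows below 0.5 TPM at 16-cell, 32-cell and blastula in both tissues, the 8-cell value was a median 0 TPM in explants and 0.202 TPM in progeny. In progeny it came to a median 0.308% of the row's own gastrula value, with quartiles of 0.227% and 0.421%, while the 16-cell value came to 0.0160%. The 361 other rows of this kind, at 20 TPM or more in gastrula progeny, had a median of 0.149% in explants and 0.354% in progeny at 8-cell. The source of these low 8-cell values was not tested. They touch the statement that gs17.L, Xelaev18044793m and Xelaev18000011m passed 1 TPM during cleavage, and the count of rows that did.

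From blastula on, 8 rows were listed at 0 in a column whose preceding stage was at 100 TPM or more. They include krt.S in mid neurula explants, after 9934 TPM at early neurula, cirbp.L in early neurula progeny, after 5676 TPM at gastrula, and eef1a1o.S, krt5.7.L and krt5.7.S in early neurula explants, which stayed at 0 in mid neurula explants.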
